A study of Caenorhabditis elegans with 2 samples.

Results

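The peaks described here are the 503 regions on the X chromosome among 2631 regions at which the forkhead protein UNC-130 was found in first-stage (L1) larvae of the nematode Caenorhabditis elegans. They are all entries on X of the authors' optimal list, which they thresholded by the irreproducible discovery rate (IDR), a measure of whether the rank of a peak repeats between replicates. The list is the same set as the 2631 peaks of highest signal among the candidates from both replicates pooled. A listed peak can therefore rank far apart in the 2 replicates. Within the list, the X peaks were chosen by chromosome and by no measured value. The other 2128 peaks of the list lie on the 5 autosomes, I to V, and are the comparison in what follows. UNC-130 was located by chromatin immunoprecipitation followed by sequencing (ChIP-seq) in whole larvae of strain OP77, with male and female animals pooled per the labels, in 2 biological replicates. Both replicates carry unc-119(ed3) III and the insertion wgIs77, which supplies unc-130 tagged with enhanced green fluorescent protein (eGFP). The values therefore describe a tagged protein from an inserted transgene, in a mutant background that both replicates share. The labels give neither the promoter that drives the transgene, nor the exact age, nor the share of each sex. The description names eGFP-unc-130 as the target of the immunoprecipitation, and the antibody label reads unc-130. There was 1 group, and the control experiment named in the labels is not analysed here, so the contrast available is between chromosomes.

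UNC-130 is a FoxD-class forkhead transcription factor, known from genetics for its part in cell and axon migration and in the fates of sensory neurons and glia. Forkhead proteins bind short DNA sites that read TGTTTAC or TGTTTGC. In C. elegans males carry a lone X and hermaphrodites carry a pair, and a condensin-containing dosage compensation complex binds along both X chromosomes of hermaphrodites and lowers their transcription. That complex is loaded at recruitment sites on X that share a motif, known as MEX, with GCGCAGGG at its centre. The X chromosome is also known for its many transfer RNA (tRNA) genes and for fewer germline genes than the autosomes.

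The 3 X peaks with the highest signal are shown first, as the reference from 50 bases before to 50 bases after the summit. The signal is the value that the authors' peak caller gave to each peak, and it was used only to rank and describe peaks within 1 list. All positions are on ce11 (WBcel235), counted from 1, and the sequences are from the RefSeq copy of that assembly, plus strand. None of these 3 windows holds either forkhead site or the MEX core.
rpl-11.2, chrX:2242953-2243053: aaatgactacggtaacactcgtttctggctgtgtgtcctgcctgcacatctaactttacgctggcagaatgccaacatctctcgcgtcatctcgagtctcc
K02D3.1, chrX:13700858-13700958: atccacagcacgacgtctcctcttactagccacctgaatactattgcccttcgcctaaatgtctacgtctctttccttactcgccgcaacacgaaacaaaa
puf-9, chrX:5841271-5841371: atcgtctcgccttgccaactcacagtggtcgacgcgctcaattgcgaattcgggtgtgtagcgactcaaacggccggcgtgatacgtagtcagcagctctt

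The next 3 windows belong to the highest X promoter peaks that hold a forkhead site, and capitals mark the site. It lies within 22 bases of the summit in each.
serp-1.1, chrX:15841211-15841311: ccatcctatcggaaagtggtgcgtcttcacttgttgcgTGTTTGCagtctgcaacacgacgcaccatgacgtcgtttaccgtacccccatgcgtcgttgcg
mdt-1.2, chrX:17151334-17151434: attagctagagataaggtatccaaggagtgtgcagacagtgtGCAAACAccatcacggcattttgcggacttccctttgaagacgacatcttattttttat
trap-2, chrX:768219-768319: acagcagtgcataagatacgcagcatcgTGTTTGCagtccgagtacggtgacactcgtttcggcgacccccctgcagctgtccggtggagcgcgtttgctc

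The last of these windows is the highest X peak with the MEX core, in capitals, nearest to gtr-1.
gtr-1, chrX:806634-806734: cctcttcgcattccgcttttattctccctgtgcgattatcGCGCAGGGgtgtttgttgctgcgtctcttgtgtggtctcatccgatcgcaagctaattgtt

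Files with read counts were not used here, so depth is unknown. Intervals count peaks or genes and hold no other error than that of counting. The pooled list and that of replicate 1 each hold 30000 candidate peaks and that of replicate 2 holds 25234. For each replicate's own view, the 2631 peaks with the highest signal in its list were used. All 503 X peaks are 250 bp wide. X and autosomal peaks were compared by Fisher's exact test, two-sided, and the share of X by an exact binomial test, with p-values adjusted by the Benjamini-Hochberg method over 17 such tests at 0.05. Peaks of 1 chromosome are not replicates of a condition, so these p-values cover counting error alone. A permutation of 1 chromosome against 5 could not give a p below 0.167. The range over the 5 autosomes and the values of both replicates' own lists are therefore given beside the main results.

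X held close to its share of peaks by length and more than its share by genes. Its 503 peaks are 19.1% of the list (95% Wilson interval 17.7 to 20.7), and X makes up 17.7% of the sequence of the 6 chromosomes, a ratio of 1.08 (exact binomial test, adjusted p = 0.0670). The 2631 highest peaks of replicate 1 included 490 on X and those of replicate 2 included 536. The ratio was 1.05 in replicate 1 (adjusted p = 0.244, exact binomial test) and 1.15 in replicate 2 (adjusted p = 0.000651, exact binomial test), so the replicates fell on opposite sides of the threshold. Against its 13.7% of protein-coding genes the share of X was 1.40 times as large (exact binomial test, adjusted p = 8.20e-14). The share of X was much the same, 18.9%, among the 27369 pooled candidates below the optimal list, which include background. A share above that of genes was thus not particular to the optimal list. Against the 14.1% of promoter sequence that lies on X the ratio was 1.35 (exact binomial test, adjusted p = 1.59e-11). That ratio counts all X peaks, most of which lay outside promoters. Promoter peaks alone numbered 63.2 per Mb of promoter sequence on X and 74.5 on the autosomes together.

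Far fewer X peaks than autosomal peaks lay in promoters, and more lay in intergenic sequence, coding exons, introns and non-coding RNA genes. Each summit was placed in the first class that applied, from promoter through coding exon, UTR (the untranslated parts of exons), intron and non-coding RNA gene to intergenic. A promoter summit lay no more than 500 bp from a protein-coding 5′ end. Promoters held 168 of the 503 X summits, 33.4% (Wilson interval 29.4 to 37.6), against 1205 of 2128 on autosomes, 56.6% (54.5 to 58.7; Fisher's exact test, adjusted p = 8.04e-20). The 5 autosomes ranged from 52.3% on II to 64.1% on I, all above X. In the list of replicate 1 the promoter share was 32.4% on X against 55.9% to 64.2% on the autosomes. In that of replicate 2 it was 32.5% against 45.6% to 55.4%.

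Of the other classes, intergenic sequence differed most. Intergenic summits numbered 175 on X (34.8%) and made up 21.2% on autosomes, at most 22.7% on IV (Fisher's exact test, adjusted p = 2.94e-09). Introns held 114 X summits (22.7%, against 17.6%; Fisher's exact test, adjusted p = 0.0152), a difference that missed the threshold in the list of replicate 2 (23.3% against 20.6%, adjusted p = 0.210). Non-coding RNA genes held 33 (6.56%, against 2.73%; Fisher's exact test, adjusted p = 0.000220). Coding exons outside promoters held 12 X summits (2.39%) and 13 autosomal ones (0.611%), so 1 chromosome carried nearly as many as the other 5 (Fisher's exact test, adjusted p = 0.00181). UTRs held 1 X summit and 26 autosomal ones (Fisher's exact test, adjusted p = 0.0596).

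**Figure D1:**
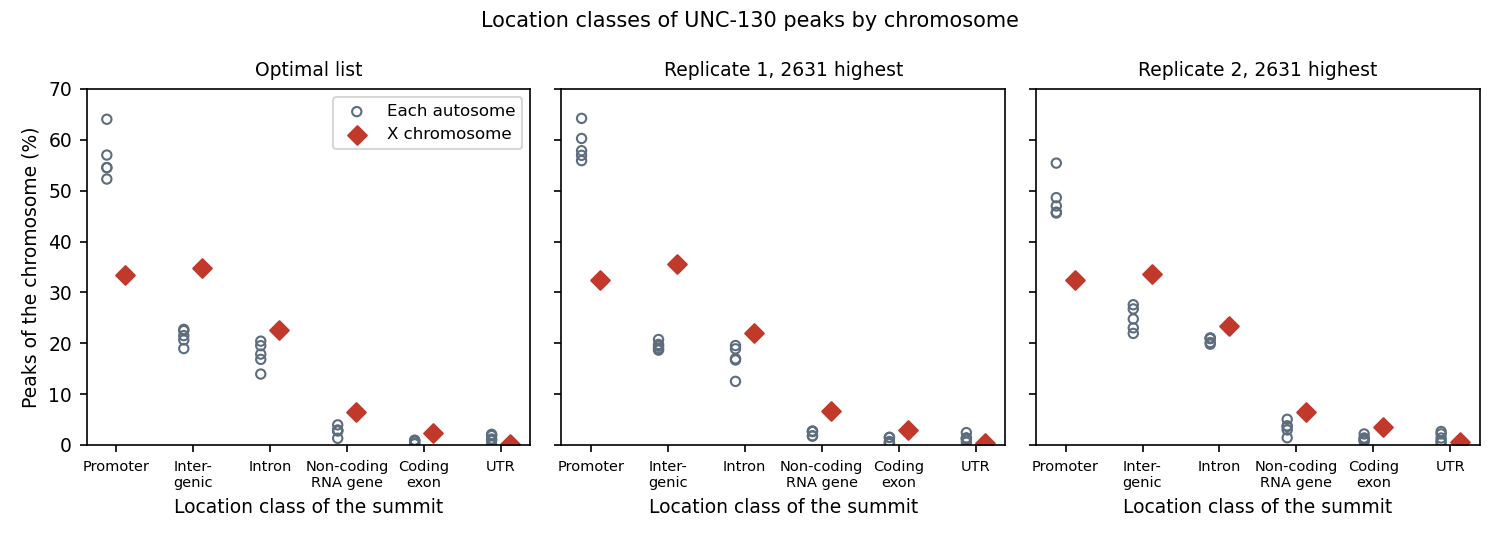
Share of the peaks of each chromosome (%) in each location class, in the optimal list and in the 2631 highest peaks of each replicate; diamonds are X and open circles the 5 autosomes. X lies below all autosomes for promoters and above all of them for intergenic sequence in the 3 lists.

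The classes also cover unequal shares of the chromosomes. Promoters make up 15.0% of X and 19.6% of the autosomes, and intergenic sequence 36.3% of X and 27.3% of the autosomes. Per Mb of promoter sequence, X held 63.2 peaks, inside the autosomal range of 49.5 on V to 110 on I. Per Mb of intergenic sequence X held 27.2 peaks, also inside the range of the autosomes (14.3 on V to 28.4 on III). Non-coding RNA genes, outside the former classes, make up 1.38% of X and 0.813% of the autosomes. They held 135 X peaks per Mb, inside the autosomal range (42.5 on IV to 152 on III). Introns held 23.7 X peaks per Mb, above the highest autosome (II, 22.1), and coding exons 4.12, above the highest autosome (I, 1.26). These densities were not tested.

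X peaks also lay farther from the 5′ ends of protein-coding genes. X has 17.7% of the sequence and 13.7% of these genes, and the distance to be had from gene spacing alone was not computed. The median distance from the summit to the nearest 5′ end of a protein-coding gene was 1160 bp on X and 344 bp on autosomes, whose medians ran from 268 to 422 bp. On X 180 summits (35.8%) lay more than 2000 bp from any such 5′ end, against 21.3% on autosomes (range 15.7% to 24.6%; Fisher's exact test, adjusted p = 3.66e-10). At a limit of 5000 bp the shares were 10.9% and 8.08% (adjusted p = 0.0596, Fisher's exact test), which did not pass. Of the 323 X peaks within 2000 bp of their gene, 252 (78.0%) were upstream of it, and the median summit was 206 bp upstream.

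The X peaks were lower in the optimal list than the autosomal ones. The highest X peak, near rpl-11.2, ranked 26 of 2631, and X held 2 of the 50 highest peaks, 3 of the 100 highest and 74 of the 500 highest (14.8%). The median rank was 1457 on X and 1274.5 on autosomes, whose medians ran from 1073 on III to 1358 on IV. Among the 1315 highest peaks of the list were 219 X peaks, 43.5% of them, against 51.5% of the autosomal peaks (Fisher's exact test, adjusted p = 0.00254).

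The rank difference passed the threshold in replicate 1 and not in replicate 2. In the list of replicate 1 X held 5 of the 100 highest peaks and 63 of the 500 highest (12.6%). In that of replicate 2 it held 15 of the 100 highest and 20.2% of the 500 highest. Among the 1315 highest the difference between X and autosomal peaks was -9.26 percentage points in replicate 1 (adjusted p = 0.000475, Fisher's exact test) and -0.68 in replicate 2 (adjusted p = 0.809, Fisher's exact test). The gap was also smaller on either side of the split into promoter peaks and others. Among promoter peaks 54.8% on X and 59.8% on autosomes were in the upper 1315 (Fisher's exact test, adjusted p = 0.255), and among the others 37.9% and 40.6% (adjusted p = 0.478, Fisher's exact test). Of the classes with more than 1 X peak, only introns had a gap as wide as that over all peaks. Their shares were 31.6% on X and 40% on autosomes (Fisher's exact test, adjusted p = 0.553 over 18 tests within classes). These splits were chosen after the data were seen. A p that misses the threshold does not show that the classes had equal ranks.

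**Figure D2:**
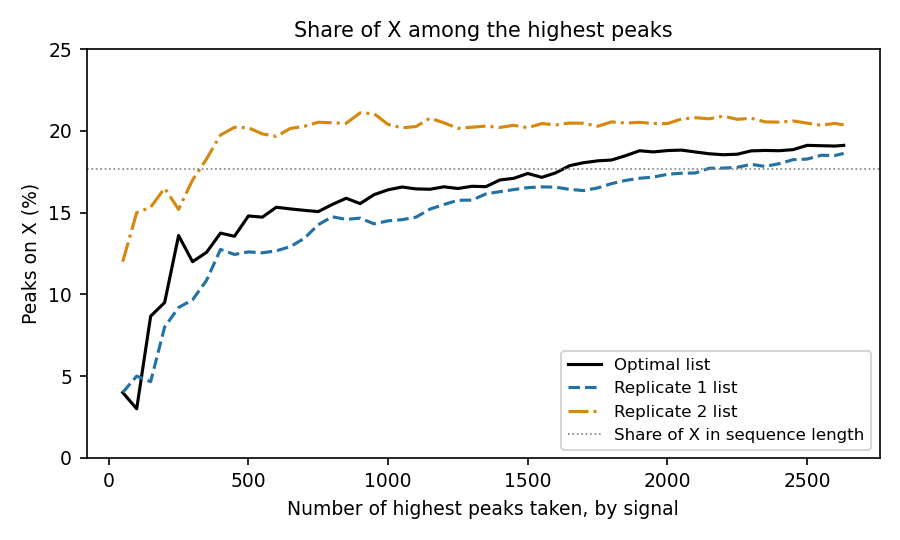
Share of X (%) among the highest peaks by signal, from the 50 highest to the 2631 highest, in the optimal list and in each replicate's list; the dotted line is the share of X in sequence length (17.7%). Among the 500 highest peaks X has 14.8% in the optimal list, 12.6% in replicate 1 and 20.2% in replicate 2.

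X and autosomal peaks were found in both replicates in nearly the same share, but X peaks stood higher in replicate 2 more often than autosomal peaks did. Of the X peaks 492 (97.8%) overlapped a peak of both replicates' lists by at least 1 bp, against 97.5% of the autosomal peaks. These lists also hold background and were the source of the optimal list. Among the 2631 highest peaks of both replicates were 281 X peaks (55.9%) and 57.5% of the autosomal peaks (Fisher's exact test, adjusted p = 0.547). Each peak found in both lists was given its percentile of signal within each replicate among these optimal peaks, 100 being the highest. The median percentile of X peaks was 42.2 in replicate 1 and 51.5 in replicate 2, and that of autosomal peaks 51.9 and 49.4.

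The percentile was higher in replicate 2 for 282 of 492 X peaks, 57.3%, and for 46.4% of autosomal peaks, with a range of 41.4% on II to 50.4% on IV (Fisher's exact test, adjusted p = 3.76e-05). Among promoter peaks the shares were 50% on X and 36.5% on autosomes (Fisher's exact test, adjusted p = 0.00205), and outside promoters 61.0% and 59.3% (adjusted p = 0.645, Fisher's exact test). This split was chosen after the data were seen, and whether the 2 differences differ from each other was not tested. Across the 492 X peaks, which share both libraries, Spearman's rho between the replicates' signals was 0.17, and 0.26 across the autosomal peaks. Both values come from a list cut on pooled signal, and the effect of that cut on rho was not tested. Which of the replicates is nearer to the occupancy of UNC-130 cannot be told from these lists.

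X peaks were spread along the chromosome, without the excess in the middle seen on the autosomes. Of the X summits 261 (51.9%) lay in the middle 50% of the chromosome, against 64.1% on autosomes (range 58.8% on IV to 73.1% on V; Fisher's exact test, adjusted p = 1.54e-06). The values were 51.6% in replicate 1 and 50.2% in replicate 2. Genes did not differ to that extent, with 52.9% of X genes and 55.7% of autosomal genes in the middle. X held 18.0 peaks per 100 protein-coding genes in its middle and 18.8 outside it, and the autosomes held 14.2 and 9.99.

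The left end of X was sparse and the right part dense. Among the 17 full bins of 1 Mb the count ran from 13 to 41, with a median of 29. The first bins from the left end held 13 and 14 peaks, and the fullest were chrX:6000001-7000000 with 41 and chrX:13000001-14000000 with 40. Cut into 4 equal parts, X held 93, 131, 130 and 149 peaks from left to right, and 653, 732, 714 and 632 genes. The bins at 6 and 13 Mb were also the fullest, or among the fullest, in both replicates, with 41 and 39 peaks in replicate 1 and 40 and 46 in replicate 2.

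**Figure D3:**
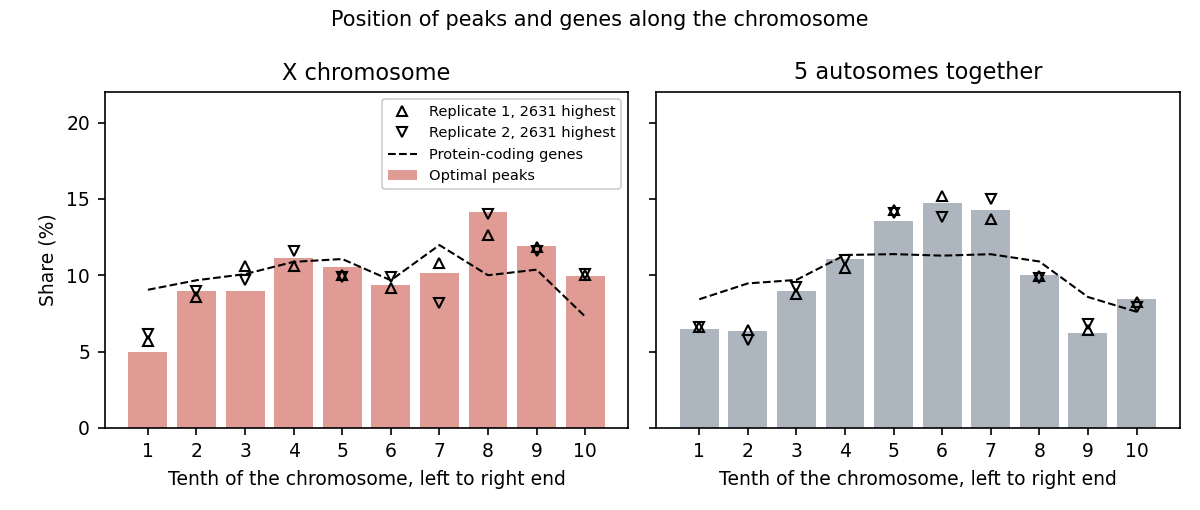
Share (%) of peaks and of protein-coding genes in 10 equal bins from the left to the right end, for X and for the autosomes together; bars are optimal peaks, triangles each replicate's 2631 highest and the dashed line genes. On X the bins run from 4.97% to 14.1% with no central rise, and on autosomes the highest bins are central, up to 14.7%.

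No difference in clustering passed the threshold. On X 106 peaks (21.1%) had another summit within 2000 bp, against 22.1% on autosomes (Fisher's exact test, adjusted p = 0.632). They formed 36 pairs, 8 runs of 3, 1 run of 4 and 1 run of 6. The last 2 runs are neighbours, 2028 bp apart, around mdl-1, a gene for a Mad-family partner of Max. Together they place 10 peaks over 10190 bp, chrX:6735666-6745855. The optimal-list signal of these 10 ran from 31.9 to 79.3, and 8 of them were among the 2631 highest of both replicates. The peak at chrX:6743912-6744161 had a signal of 79.3 with ranks of 94 in replicate 1 and 484 in replicate 2. The peak at chrX:6737728-6737977 had a signal of 78.3 and ranked 258 and 133. The promoter peak at chrX:6742113-6742362 ranked 2438 and 166, so within this cluster the replicates ordered the peaks differently. Of the 10, 1 held a forkhead site.

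A larger share of X peaks than of autosomal peaks lay at tRNA genes, of which X carries many. At most 100 bp from a tRNA gene lay 49 X peaks, 9.74% (Wilson interval 7.45 to 12.6), against 65 autosomal peaks, 3.05% (range 2.55% to 3.49%; Fisher's exact test, adjusted p = 9.72e-09). Replicate 1 gave 11.8% on X against 3.46%, and replicate 2 gave 5.41% against 2.39%. X holds 276 of the 612 tRNA genes (45.1%). Of these 54 (19.6%) had such a peak, and of the 336 autosomal ones 68 (20.2%). Counted over tRNA genes, the difference did not pass the threshold (Fisher's exact test, p = 0.919 after adjustment over 4 classes of short RNA gene, chosen after the data were seen). Of the 49 peaks 44 lay outside promoters, 22 were beyond 2000 bp of a protein-coding 5′ end, and 16 were among the 1315 highest.

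Among the other classes of short RNA gene, only the difference for small nucleolar RNA genes passed the threshold. Of 33 small nucleolar RNA (snoRNA) genes on X 1 had a peak in it or within 100 bp, against 67 of 313 on autosomes, 21.4% (Fisher's exact test, adjusted p = 0.0385 over the 4 classes). None of the 74 microRNA genes on X had one, which allows a share of up to 4.05% by a limit of 3 counts, and 9 of 187 on autosomes did (Fisher's exact test, adjusted p = 0.129). Small nuclear RNA genes number 3 on X, of which 1 had a peak, against 13 of 126 on autosomes (Fisher's exact test, adjusted p = 0.391). Without the peaks at tRNA, snoRNA and snRNA genes 35.8% of X peaks and 59.0% of autosomal peaks were in promoters.

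The MEX core GCGCAGGG marked a small group of X peaks. It lay, on either strand, within 50 bp of 10 X summits, 1.99% (Wilson interval 1.08 to 3.62), and of 0 of 2128 autosomal summits, which allows a share of up to 0.141% by the same limit of 3 counts (Fisher's exact test, adjusted p = 2.06e-07). In tiles as long as these windows the core occurs in 68 of 175435 tiles on X (0.0388%) and 215 of 817362 on autosomes (0.0263%). At the same X peaks, windows centred 500 bp to either side held it in 1 and 0 of 503. The 10 peaks hold 12 cores, shown as 30 bases on the strand on which the core, in capitals, reads GCGCAGGG. They are named by the nearest gene, from the highest peak to the lowest.
gtr-1, chrX:806663-806692, plus strand: gtgcgattatcGCGCAGGGgtgtttgttgc
F20B6.9, chrX:4209255-4209284, minus strand: ttgccgctatcGCGCAGGGacacctctttc
nspc-17, chrX:14525889-14525918, minus strand: tattgcctatcGCGCAGGGacagatgtggt
ins-39, chrX:1345045-1345074, plus strand: caatgtcattcGCGCAGGGcagctgagccc
W02H3.3, chrX:11094215-11094244, minus strand: gggaaccattcGCGCAGGGacacctcactg
cest-16, chrX:6296537-6296566, plus strand: atttacatttgGCGCAGGGggtcaccatag
cest-16, chrX:6296565-6296594, plus strand: agataggtatcGCGCAGGGaagatttaccg
got-2.2, chrX:6250299-6250328, minus strand: acatgcaagagGCGCAGGGgttgtgagaca
xol-1, chrX:8036424-8036453, plus strand: atttttccatcGCGCAGGGaacccttcgat
xol-1, chrX:8036390-8036419, minus strand: aattttttatcGCGCAGGGacgtatgtcga
apm-3, chrX:954900-954929, minus strand: taataaacaacGCGCAGGGagttatttcgg
dpy-23, chrX:4395604-4395633, plus strand: aaaggagacaaGCGCAGGGagaactggtgg

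Of the 12 cores 8 are preceded by TC and 8 are followed by A. Only 2 are followed by AG, and 0 have both TC before and AG after. Of these peaks 9 of 10 lie outside promoters, against 335 of all 503 X peaks (66.6%). By position 8 are intergenic, 1 is in an intron and 1 in a promoter, and 6 lie beyond 2000 bp of a protein-coding 5′ end. They are among the higher X peaks, with 8 of 10 in the upper 1315 of the optimal list and 5 among the 40 highest on X. The peak near gtr-1 had an optimal-list signal of 92.2 with ranks of 211 in replicate 1 and 80 in replicate 2. The peak near W02H3.3 had a signal of 73.9 and ranked 1199 and 27.

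The 2 cores nearest to xol-1, the switch gene of sex determination, lie in 1 peak, chrX:8036285-8036534, 4903 bp from its 5′ end. That peak had a signal of 39.7 and ranked 7300 in replicate 1 and 154 in replicate 2, so replicate 1 placed it far down its list. Across the 10 peaks with the core the median percentile was 62.0 in replicate 1 and 94.7 in replicate 2, and 8 of 10 stood higher in replicate 2. In the 2631 highest peaks of replicate 1 the core marked 1.84% of X peaks and 0.0934% of autosomal peaks, and in those of replicate 2 1.87% and 0.0477% (Fisher's exact test, adjusted p = 2.76e-05 and 2.93e-06).

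Counted from the sequence instead, 21 of the 81 copies of the core on X (25.9%, Wilson interval 17.6 to 36.4) lay inside an optimal peak, and 3 of 233 on autosomes (1.29%, 0.439 to 3.72). The absence from autosomal peaks thus holds within 50 bp of the summit and not over whole peaks. In replicate 1 the counts were 14 and 3, in replicate 2 20 and 4. A match to these 8 letters is a description of sequence and not a binding site of UNC-130. Binding of the dosage compensation complex was not measured in these data.

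**Figure D4:**
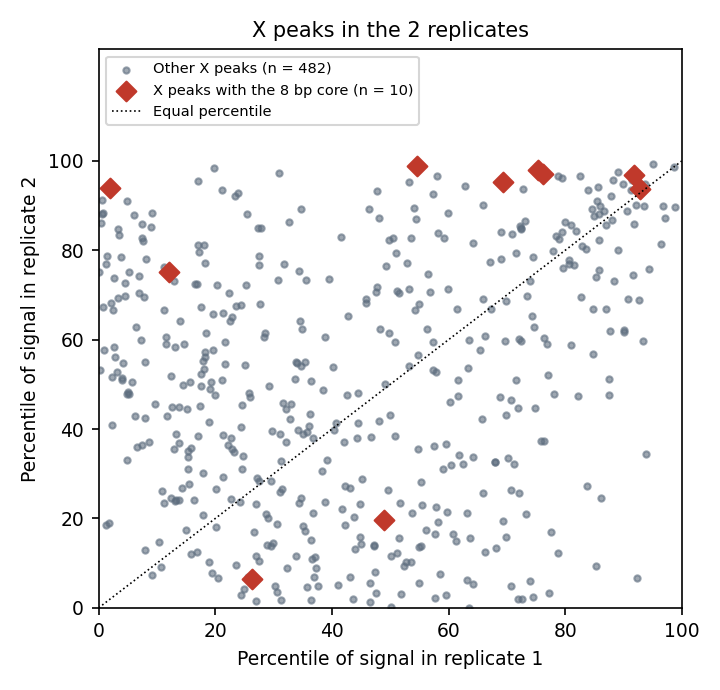
Percentile of signal in replicate 1 (x axis) and replicate 2 (y axis) of the 492 X peaks found in both lists; diamonds are the 10 peaks with the MEX core and the dotted line marks equal percentiles. Of the diamonds 8 lie above the line, with a median of 94.7 in replicate 2 and 62.0 in replicate 1.

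Forkhead sites were found at a minority of X summits, and no difference from autosomes passed the threshold. TGTTTAC or TGTTTGC lay, on either strand, within 50 bp of 48 X summits, 9.54% (Wilson interval 7.27 to 12.4), and of 232 autosomal summits, 10.9% (range 8.82% to 13.3%; Fisher's exact test, adjusted p = 0.478). TGTTTGC was found at 35 X summits and TGTTTAC at 14, so 1 summit had both. Windows 500 bp to the left and right of the X summits held a site in 3.98% and 4.57%. The 2 sites differed in this: TGTTTGC was at 6.96% of X summits and in 1.59% and 1.99% of the windows to the side, and TGTTTAC at 2.78% and in 2.39% and 2.58%. On autosomes TGTTTAC was at 2.11% of summits and in 0.705% and 1.22% of the windows to the side. These shares were not tested. Tiles of the same length held one in 3.47% on X and 2.60% on autosomes, and windows just upstream of all X genes in 4.58%. X promoter peaks held a site in 24 of 168 (14.3%) and other X peaks in 24 of 335 (7.16%). Most X peaks, like most autosomal ones, had none of these letters near the summit.

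By median, X promoter peaks were richer in G and C than those of any autosome. Within 100 bp of the summit, 201 bp in all, the median was 46.3% on X and 39.8% on autosomes, whose medians ran from 39.3% to 40.3%. Replicate 1 gave 45.3% against at most 39.8% on an autosome, and replicate 2 gave 46.5% against at most 41.3%. Outside promoters X had 44.8% and autosomes 44.3%. The whole chromosomes have 35.2% on X and 35.5% on autosomes, and 201 bp windows upstream of all protein-coding genes a median of 35.3% on X and 33.3% on autosomes (32.8% to 33.8%). This comparison was made after the data were seen and has no test.

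**Figure D5:**
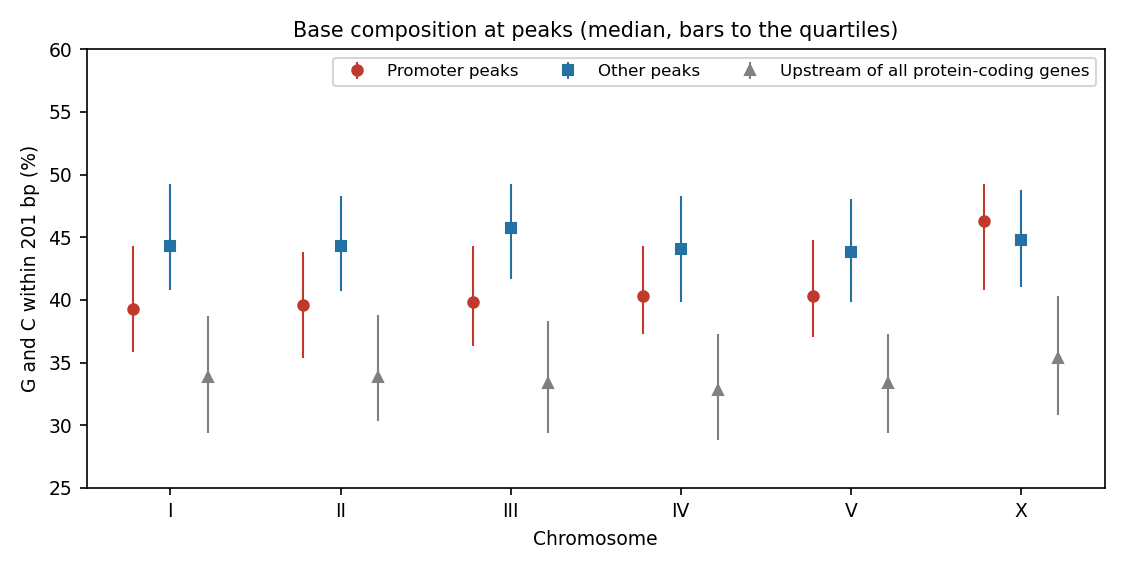
Share of G and C (%) in 201 bp around optimal summits in promoters and outside them, and upstream of all protein-coding genes, by chromosome; points are medians and bars reach the quartiles. X promoter peaks have a median of 46.3%, and the 5 autosomes 39.3% to 40.3%.

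On X 297 of 2731 protein-coding genes were assigned at least 1 peak, by the nearest 5′ end within 2000 bp. That is 10.9% of X genes, against 9.09% of autosomal genes and 9.33% of all genes (Fisher's exact test, adjusted p = 0.00509). This direction depends on the rule: with every gene within 2000 bp of a summit counted, X had 13.4% and the autosomes 15.7% (adjusted p = 0.00284, Fisher's exact test). The autosomal range under the main rule was 5.99% on V to 12.8% on I. Of the 297 genes 275 had 1 peak, 19 had 2, and 3 had more, namely mdl-1 with 5, F48F7.5 with 3 and pcca-1, which encodes a propionyl-CoA carboxylase subunit, with 3.

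The 20 highest X peaks ranked 26 to 208 in the optimal list, with signals of 77.3 to 132. All 20 were among the 2631 highest of both replicates, with ranks of 30 to 649 in replicate 1 and 18 to 484 in replicate 2. By class they were 8 promoter, 7 intergenic, 3 intron and 2 non-coding RNA gene peaks. The highest, chrX:2242878-2243127, lay 385 bp upstream of rpl-11.2, which encodes a protein of the large ribosomal subunit, and its rank was 34 in replicate 1 and 37 in replicate 2. The second, chrX:13700783-13701032, was intergenic, 5999 bp from K02D3.1, and ranked 128 and 18. The third, chrX:5841196-5841445, lay 271 bp upstream of puf-9, which encodes a Pumilio-family RNA-binding protein, and ranked 30 and 268. These 3 stood near the top in both replicates.

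The rest of the 20 lay near genes of several kinds. A peak with signal 92.6, intergenic, lay 2551 bp upstream of hda-4, a class II histone deacetylase gene, and ranked 219 and 110. A promoter peak of nhr-35, a nuclear hormone receptor gene, had signal 84.4 and ranked 225 and 169. A promoter peak of mdt-1.2, named for the Mediator complex, had signal 80.3 and ranked 165 and 259. Intron peaks lay in nhr-14 (rank 177), in sir-2.2, a sirtuin gene (rank 208), and in unk-1 (rank 105), where the nearest 5′ end was that of C34D10.5. The promoter peak of hst-2, a heparan sulfate sulfotransferase gene, had its summit 16 bp upstream of the gene and ranked 73 and 331. The remaining nearest genes were F09E10.1, serp-1.1, gtr-1, W05H9.4, C18B12.4, F20B6.9, F17E5.2, lgc-21 and, for a pair of peaks, mdl-1. The peak nearest to lgc-21 lay within 100 bp of a tRNA gene.

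Gene lists are given as counts beside the background of 10.9% of X genes. They were chosen with earlier results of these data known and have no test. Of the heterochronic list, genes that time larval development, the 5 protein-coding genes on X were each assigned a peak, against 3 of 10 on autosomes. The list also names microRNA genes, which peaks were not assigned to. RefSeq coordinates place 3 of them on X, let-7, mir-84 and mir-237, and none of the 3 had a peak within 100 bp. The 5 protein-coding genes were lin-14, hbl-1, daf-12, puf-9 and kin-20. In the 2631 highest peaks of replicate 1 alone, 2 of the 5 had a peak, and in those of replicate 2 all 5. The promoter peak of lin-14, which encodes a nuclear factor that specifies fates of the first larval stage, was chrX:11465239-11465488 with signal 61.2, and ranked 1239 and 123. A further lin-14 peak, 926 bp upstream, had signal 31.8 and ranked 1342 and 2563. Another 4 summits lay in introns of lin-14, the best at rank 1225, a count made after the values were seen.

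The puf-9 peak, described above, was the highest of the list. The intergenic peak of hbl-1, a Hunchback-like zinc finger gene, had signal 29.1 with ranks of 3872 in replicate 1 and 3892 in replicate 2. The intron peak of daf-12, a steroid receptor gene, had signal 31.6 and ranked 4056 and 684. The assigned peak of kin-20, a casein kinase gene, lay in an intron, had signal 29.2 and ranked 3106 and 1617. A further intron peak of kin-20, chrX:15275393-15275642, lay 2246 bp from the 5′ end, beyond the limit for assignment and noted after the values were seen, with signal 56.1 and ranks of 322 and 1521. Among the assigned peaks the highest were thus at puf-9 and lin-14, and those of hbl-1, daf-12 and kin-20 were lower. At kin-20 only the further peak, beyond the limit, was higher.

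Nuclear receptor genes on X carried a peak in 8 of 27, against 12 of 247 on autosomes. The 8 were daf-12, nhr-1, nhr-3, nhr-14, nhr-27, nhr-32, nhr-35 and nhr-48, and nhr-1, nhr-14 and nhr-48 had 2 peaks each. The intron peak of nhr-3 had signal 63.0 and ranked 300 and 715. The promoter peak of nhr-1 had signal 46.6 and ranked 2102 and 390. That of nhr-27 had signal 31.5 and ranked 4938 and 810. The further peak of nhr-14, 1560 bp upstream, had signal 35.9 and ranked 3074 and 718. Among the nuclear receptor peaks named, that of nhr-3, that of nhr-35 and the intron peak of nhr-14 were high in both replicates.

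Genes of body wall muscle carried a peak in 5 of 14 on X and 10 of 40 on autosomes. The X genes were mlc-2 (myosin light chain), mup-2 and tnt-2 (troponin T), unc-27 (troponin I) and unc-97 (a LIM protein of muscle attachments). Their optimal-list signals ran from 24.0 for mlc-2 to 47.3 for unc-97. The unc-97 peak ranked 881 in replicate 1 and 1082 in replicate 2, and the tnt-2 peak 2123 and 615.

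Axon guidance genes carried a peak in 3 of 16 on X and 11 of 52 on autosomes. The X genes were unc-115, an actin-binding protein gene, zig-3, an immunoglobulin-domain gene, and sdn-1, the syndecan gene. The promoter peak of unc-115 had signal 51.5 and ranked 1914 and 354. The intergenic peak of zig-3, 1910 bp downstream of its 5′ end, had signal 46.2 and ranked 1226 and 446. The peak of sdn-1, in a non-coding RNA gene 847 bp upstream, had signal 25.4 and ranked 2434 and 2368. Basement membrane and BMP genes carried a peak in 4 of 16 on X and 3 of 28 on autosomes. Besides sdn-1 these were sma-9, a Schnurri-like cofactor of BMP signalling with 2 peaks, kin-29, a salt-inducible-like kinase gene, and tsp-21, a tetraspanin gene. The best of them, in an intron of sma-9, had signal 41.6 and ranked 936 and 2119.

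Homeobox, ion channel, neuropeptide, chemoreceptor and collagen genes carried few peaks, on X and on autosomes alike. None of 25 homeobox genes on X had one, and 3 of 66 on autosomes did. Of 61 ion channel genes on X 3 had a peak, against 7 of 163 on autosomes. The 3 were twk-20, twk-21 and unc-58, all of the TWK family of potassium channels. Of 34 neuropeptide genes on X 2 had one, ins-39 and nlp-76, against 2 of 106 on autosomes. The peak of ins-39, an insulin-like peptide gene, is one of those with the MEX core and ranked 621 and 76. Of 33 chemoreceptor genes on X srd-43 had a peak (531 and 635), against 8 of 1276 on autosomes. Of 27 collagen genes on X col-181 had one (832 and 3800), against 4 of 129 on autosomes. Both the srd-43 and the col-181 peak also lay within 100 bp of a short RNA gene. The col-181 summit was in a non-coding RNA gene, 1274 bp downstream of the 5′ end of col-181. X carries 2 ribosomal protein genes of the list, of which rpl-11.2 had a peak, against 38 of 78 on autosomes. None of 6 X genes for sex determination and dosage compensation was assigned a peak, against 4 of 21 on autosomes, and the peak nearest to xol-1 lies beyond the limit of 2000 bp.

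With every gene within 2000 bp of a summit counted, 365 of 2731 protein-coding genes on X (13.4%) had one. Although no X microRNA gene had a peak within 100 bp, 12 of 74 had a summit within 2000 bp, at 8 peaks. These 2 counts were not compared by a test. Names were matched to RefSeq by coordinates. The highest of these peaks, chrX:14747050-14747299, lay 1854 bp upstream of the annotated let-7 gene, which controls late larval timing, had a signal of 50.8 and ranked 334 in replicate 1 and 891 in replicate 2. It was also a promoter peak of a protein-coding gene. The peak chrX:13145206-13145455, in an intron, lay 237 bp upstream of mir-54 and near mir-55, mir-56 and F09A5.15, with ranks of 1842 and 653. The peak chrX:2368195-2368444 lay 445 bp upstream of mir-73 and 723 bp upstream of mir-74, with ranks of 3020 and 2701. Single peaks lay near mir-34, mir-237, mir-392, mir-800 and mir-1829.2. That near mir-800 ranked 734 and 11012, the widest gap between replicates among these 8.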

How the data were processed

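The data were peak lists from 2 replicates, and 1 group was formed from the labels. The deposited lists have a signal for each peak, set by the authors' peak caller with no scale stated, and a q-value as −log10, which the authors deposited and which was not used for ranking. Per the notes among the deposited files, the authors made the optimal list out of the pooled list and those of both replicates. The sources used here give no aligner, peak caller or version, and the build ce11 is per the labels. Depth is unknown.

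Summits were annotated with Ensembl release 115 gene models for WBcel235, and no deposited peak passed a chromosome end. Computations used Python 3.11.15, NumPy 2.4.6 and SciPy 1.17.1 and were tested on simulated data. Runs of peaks joined summits within 2000 bp. Sequence per class was sampled every 200 bp. Named genes were those of the 20 highest X peaks, X genes with 3 or more peaks, X members of the gene lists with a peak, and X microRNA genes within 2000 bp. The members, lists and tests were chosen with earlier results of these data known. Names of 8 list members matched no protein-coding gene, of which 6 are microRNA genes matched to RefSeq by coordinates. Alternatives covered each replicate's list, the upper 1315 peaks, 1 peak per run, removal of peaks at short RNA genes, and other distance limits. Whether the replicates came from separate cultures is not stated beyond the word biological.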

Additional observations from a re-analysis of the deposited data

How the results depend on the processing

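Of 115 alternatives over 17 results, 92 kept direction and side of the threshold. Values are X minus autosomes in percentage points, or the observed over expected ratio for the share of X. With 1 replicate left out, the ratio ran from 1.05 to 1.15, intron peaks from 2.75 to 5.23, peaks in the upper 1315 from -9.26 to -0.68 and clustered peaks from -3.18 to 2.29. Among the 1315 highest peaks the ratio reversed to 0.942, coding exons gave 1.37, introns 2.75 and genes with a peak 0.053, all short of the threshold, and clustering reversed to 5.04 and presence among the highest of both replicates to 1.36. With all X peaks counted, the ratio by genes was 1.40 and by promoter sequence 1.35, both past the threshold. A promoter limit of 300 bp gave UTRs -1.54, past the threshold, and introns 3.98, short of it. A distance limit of 5000 bp gave 2.85 for distant peaks, and 1000 bp gave 0.28 for genes with a peak, both short of it. Genes with a peak reversed to -2.30 with every gene within 2000 bp. Presence in both replicates reversed to 0.35 with any peak of both lists. Outside promoters it reversed to 1.27 and forkhead sites to 1.96. The upper 1315 gave -5.07 in promoters and -2.72 outside them, and higher percentiles in replicate 2 gave 1.64 outside promoters, all short of the threshold. The splits by promoter, other than that of forkhead sites, were chosen after the data were seen. The cause was not tested. With depth unknown, no limit from reads can be given. No paired analysis was possible because there is 1 group.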
